A study of Mus musculus with 128 samples.

Results

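Cytosolic ribosomal protein genes encode the proteins of the ribosome that works in the cytoplasm. They were chosen here by symbol: Rpl or Rps followed by digits and at most 1 of the letters a, x, l or y, together with Rpsa, Rplp0, Rplp1 and Rplp2. Pseudogene entries, whose symbols end in -ps and a number, and the Rps6k kinases were left out. The rule found 81 of the 40824 gene entries of the count table, 49 of the large (60S) and 32 of the small (40S) subunit. No measured value entered the choice.

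The series profiled mouse liver with Smart-seq3xpress, a plate method that sequences the RNA of single sorted cells, in libraries of 49 groups, and open chromatin with ATAC-seq in 22 libraries of 1000 cells. Wild-type embryos of the cross C57BL/6XC3H (B6C3F1) were taken at 8 ages from E11.5 to E19.5; their cells carry the label hepatoblast to E14.5 and hepatocyte after that. The other mice were of the strain C57BL/6. Foxa3-Cre mice without a floxed allele named served as controls (Pard3WT, YapWT and Pard3WT YapWT) for Foxa3-Cre;Pard3-fl/fl (Pard3HMKO, E11.5 to P14), Foxa3-Cre;Yap-fl/fl (YapHMKO, E15.5 and E17.5) and the line with both floxed genes (E17.5), so all of these animals carried the Cre. At E17.5, Alfp-Cre mice were set beside Alfp-Cre;Pard3-fl/fl mice. Liver of the Foxa3-Cre lines at E15.5 was cultured for 2 days without an added agent (control) or with PD, TPPB, U0126 or TPPB with PD. Adult (P60) Pard3-fl/fl mice were sampled on days 0, 2 and 7 of a 70% hepatectomy. Those labelled Pard3HMKO had received AAV-Tbg-Cre 7 days before. The titles of the Pard3WT libraries also name TbgCre, but their other labels name no virus. Whether these controls received it is therefore not known. Foxa3-Cre acts in endoderm, Alfp-Cre and Tbg-Cre in the hepatocyte lineage; cells of other types keep the floxed genes. U0126 is an inhibitor of MEK and TPPB an activator of protein kinase C; the labels do not expand PD.

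Each ribosome holds a single copy of almost every ribosomal protein, and cells make the proteins in about equal numbers. Their messenger RNAs start with a run of pyrimidines, the terminal oligopyrimidine tract, through which growth signals via mTOR set how many of them are translated. Liver cells make many ribosomes when they divide, both in the embryonic liver and when the adult liver regrows after resection.

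Libraries held 7 to 133 cells (median 40) and 4506130 to 86188713 reads (median 23799012), and all 4264 cell names were distinct. Counts were summed over the cells of a library. In these sums more cells of a type and more RNA per cell cannot be told apart, and single cells were not tested. Of the cells, 41.1% had reads for at least 50% of the markers of another cell type, 1044 of them for erythroid and 759 for macrophage or myeloid markers. The hepatocyte list summed to 14745 to 381031 CPM (reads per 1000000 of a library), the lowest in cultures with TPPB. The 10 most abundant genes took 5.47% to 40.4% of a library's reads. Yap1 stood at 0.199 to 4.68 CPM in YapHMKO against 67.8 to 92.3 in YapWT at E15.5. At E17.5 it went against the labels, with 43.6 and 45.2 in the libraries labelled YapHMKO, 38.3 and 42.2 in those labelled Pard3HMKO YapHMKO, and 16 and 19 in YapWT. Pard3 was not lower in Pard3HMKO at E17.5 (25.5 and 40.1 against 10.9 and 16.9), E19.5, P0, with Alfp-Cre or in adults on day 0. The groups overlapped at E15.5 and on days 2 and 7 after hepatectomy. Pard3 was lower in Pard3HMKO at E11.5 (32.4 and 32.9 against 39.6 and 42.8), E13.5, P14 and in culture controls. Whole-gene counts need not reflect the loss of a floxed exon. These levels are also scaled by library totals only. On that scale the median of all genes was 0.63 log2 higher in Foxa3Cre Pard3HMKO than in Pard3WT at E17.5.

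Almost all of these genes were read in every library, since reads of 78 of the 81 members were found in all RNA libraries. The exceptions were Rpl3l, the muscle paralog of Rpl3, with 191 reads in 30 libraries, Rpl39l with 140 reads in 14 libraries and Rpl10l with 1 read; the latter are paralogs known from the testis. Divided by gene length and scaled to 1000000 per library, the 79 members with a length had a median level of 1331 (each the mean of the 49 group means), and 54 were at or above 1000. Rpl41, which encodes the shortest ribosomal peptide, had the highest mean level per length, 7313. Rpl38, Rps14, Rps27 and Rpl32 followed at 4452, 4427, 4111 and 3905. At the low end stood Rpl22 at 282, Rps15a at 188, Rps4l at 80.2, Rpl24 at 64.4 and Rpl3l at 0.0703. Reads that the authors' counting gave to pseudogenes or to other transcripts would lower such a value, and this was not tested.

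**Figure D1:**
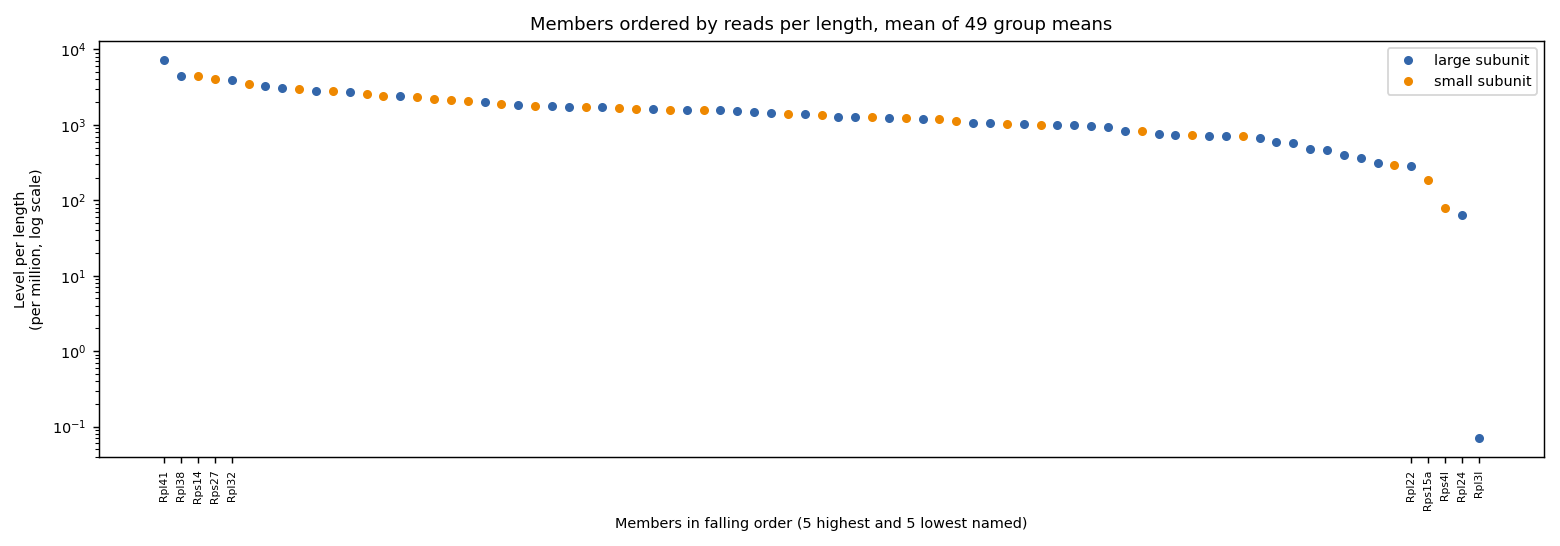
Level per gene length (per 1000000, log scale), as the mean of the 49 group means, for the 79 members with a length, in falling order along the horizontal axis; colours mark the subunit. Rpl41 stands highest at 7313, and Rps4l, Rpl24 and Rpl3l stand below 100.

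The paralog pairs differed in how the copies shared the reads. Rps27l, a paralog of Rps27 that p53 induces, had 94.6 reads for each 100 of Rps27, or 45.6% of its level per length. Rps4l had 5.54 reads for each 100 of the X-linked Rps4x and 6.03% of its level per length. Rpl3l had 0.00515 reads for each 100 of Rpl3.

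Most members moved together across the 49 groups, some only loosely. Over the group means, the CPM of a member correlated with the sum of all other members with a median r of 0.85, and 51 of 78 members had an r of at least 0.8. Rps27l had the lowest, 0.15, followed by Rps18 (0.31), Rpl29 (0.53) and Rps2 (0.55). These points share libraries and depth, no matching r of other genes is given, and the values serve as a description. The median SD of a member's log2 level over the groups was 0.71, against 0.93 over the 7698 genes with a mean of at least 10 CPM and reads in every group. Rpl29, Rps15a and Rpl39 varied most (SD 1.55, 1.16 and 1.13), and Rpl13a, Rpl24 and Rpl7a least (0.49, 0.51 and 0.53).

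The promoters of the members were rich in 2 features known of this family, a C and T run at the start site and a binding sequence of ETS factors. RefSeq start sites on GRCm38.p6, the build of the files, were at hand for 60 of the 81 members, in 72 windows of 250 bases before to 50 after the start. CGGAAG, the core that ETS factors bind, was present on either strand in 61.1% of these windows, against 16.9% of the 32851 windows of 27025 genes. CTCTTTC, a stretch of C and T letters that can overlap a terminal tract, was present in 27.8% against 8.16%. CACGTG, which Myc binds, was present in 11.1% against 7.15%, and the TATA box TATAAA in 8.33% against 13.6%. A run of at least 6 C or T letters on the gene's own strand lay within 15 bases of the start in 52.8% of member windows and in 29.2% of all windows. A C at the listed start followed by 4 letters of C or T was found in 18.1% against 2.51%. A match describes letters, not a used site.

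The sequences of 9 members named in these results are shown. They are those of the highest level, both copies of the Rps27 pair, those with large changes, and Rpl3l as a member hardly read in liver. No level or change was tested against these sequences. Each line gives 40 bases before the listed start and the 20 bases that follow, 5′ to 3′ on the gene's strand (RefSeq, GRCm38.p6), with runs of at least 6 C or T in capitals.
Rpl41 (chr10:128549149-128549208, minus strand): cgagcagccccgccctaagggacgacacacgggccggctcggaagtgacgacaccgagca
Rpl38 (chr11:114668540-114668599, plus strand): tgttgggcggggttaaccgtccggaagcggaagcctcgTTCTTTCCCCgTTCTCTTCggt
Rps27 (chr3:90213629-90213688, minus strand): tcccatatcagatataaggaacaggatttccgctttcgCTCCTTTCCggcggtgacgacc
Rps27l (chr9:66946046-66946105, plus strand): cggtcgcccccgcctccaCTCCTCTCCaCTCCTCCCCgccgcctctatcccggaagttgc
Rpl39 (chrX:37085203-37085262, minus strand): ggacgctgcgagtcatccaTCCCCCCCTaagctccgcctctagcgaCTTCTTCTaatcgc
Rps2 (chr17:24720023-24720082, plus strand): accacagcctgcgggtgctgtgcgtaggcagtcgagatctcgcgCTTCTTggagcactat
Rpl26 (chr11:68901526-68901585, plus strand): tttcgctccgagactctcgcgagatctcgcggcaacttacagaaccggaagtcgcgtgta
Rpl15 (chr14:18270967-18271026, minus strand): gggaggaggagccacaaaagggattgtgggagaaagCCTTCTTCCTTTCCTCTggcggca
Rpl3l (chr17:24727786-24727845, plus strand): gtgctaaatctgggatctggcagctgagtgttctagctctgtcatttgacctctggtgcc
Rpl15 holds the longest marked run, 17 bases across its listed start. Rpl41, Rpl26 and Rpl3l hold none in this window, although Rpl41 was the member with the highest level. Rps27 and Rps27l both hold such runs, those of Rps27l lying further before the listed start.

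Promoters of the members were open in nearly all ATAC libraries. A region called by the authors overlapped the promoter window of 85% to 90% of the 60 members per library, against 32.5% to 41.1% of all genes with a window. The libraries listed 24270 to 45898 regions. Of the members, 48 had a region in every library. Rpl10l, Rpl39l and Rpl3l, which were hardly read in the RNA libraries, had none in any library, and neither had Rpl13a, Rpl15 and Rps21. Within a library the median percentile of the authors' score of these regions ran from 60.6 to 85.3 for members and from 74.4 to 86.0 for all genes. The median of the members was below that of all genes in 21 of the 22 libraries and above it in 1; this was not tested.

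Member reads took 3.43% to 21.4% of a library (median 6.87%), and less at later ages. In B6C3F1 embryos the share was 13% and 12.7% at E11.5, 10.7% and 11.4% at E12.5, 6.57% and 6.67% at E13.5, and 8.83% and 8.86% at E14.5. It was 7.28%, 7.59% and 7.15% at E15.5, 6.55%, 6.75% and 6.83% at E16.5, 6.19% and 6.09% at E17.5, and 5.55% and 5.50% at E19.5. E13.5 broke the order, lying below E14.5 and E15.5 in both libraries.

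The Foxa3Cre controls (Pard3WT) started higher and also ended low. They stood at 21.4% and 20.6% at E11.5, 13.6% and 14.3% at E13.5, 9.13% and 9.94% at E15.5, 7.63% and 7.85% at E17.5, 8.42% and 7.85% at E19.5, 7.94% and 8.11% at P0, and 4.50% and 4.31% at P14. At E11.5 their hepatocyte markers summed to 31452 and 31583 CPM, against 119630 and 121205 in B6C3F1 embryos of that age, so these libraries differed in more than strain. Adult livers before surgery were near the P14 level, as given below.

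**Figure D2:**
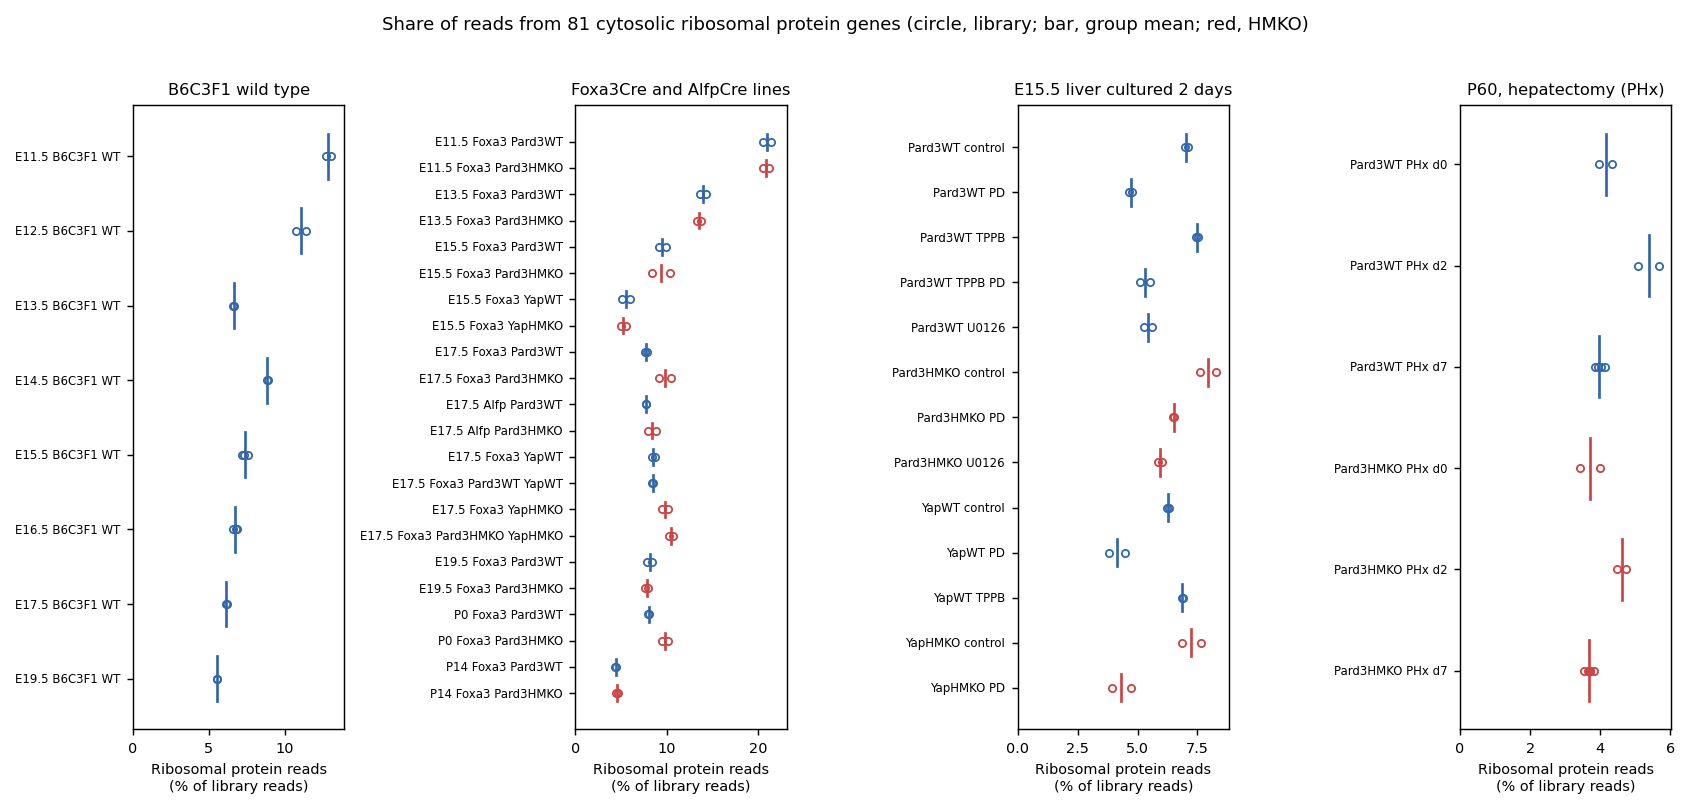
Percent of a library's reads that fell on the 81 members (horizontal axis), by group; circles are libraries, bars group means, red the HMKO groups. The share is highest at E11.5 in the Foxa3Cre line, near 21%, and lowest in adult livers, near 4%.

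The first comparison asked how the genes change with age in B6C3F1 embryos. Between E11.5 and E19.5, 31 of 78 tested members fell per day of age and 1, Rps18, rose, when libraries were scaled by TMM, which assumes that most genes do not change. Among the 15662 genes tested, 17.1% fell and 18.6% rose. The median slope was -0.08 log2 per day for members and -0.01 for all genes; with libraries scaled by their total reads, 63 members fell and 1 rose, at a median of -0.16 against -0.09 for all genes. The large subunit (median -0.07) and the small subunit (-0.08) moved alike.

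Rpl27a of the large subunit had 1229 and 1158 CPM at E11.5 and 375 and 360 at E19.5, a slope of -0.24 ± 0.04 (SE; edgeR quasi-likelihood test, Benjamini-Hochberg adjusted p = 5.2e-05). Rps15a of the small subunit had 1126 and 1105 at E11.5, 181, 194 and 139 at E15.5, and 324 in both E19.5 libraries (-0.26 ± 0.06, adjusted p = 0.0028). In these genes no E19.5 library reached an E11.5 library, but the fall was not steady, since Rps15a was lower at E15.5 than at E19.5. Some members swung further at E15.5, in either direction. Rpl32 had 337 and 358 CPM at E13.5, 3185, 3673 and 3659 at E15.5, and 1761 and 1754 at E19.5. Rpl29 had 536 and 471, then 43.9, 45.2 and 42.6, then 327 and 319 at these ages. The cause of these swings was not tested.

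Rps18, a protein of the head of the small subunit, went the other way. It had 1082 and 1029 CPM at E11.5, 2636 and 2585 at E17.5, and 2675 and 2663 at E19.5. Its slope was 0.20 ± 0.03 (adjusted p = 9.0e-05), and 0.11 by library totals. Within E16.5 its libraries were far apart, at 1694, 2865 and 2449, as were those of Rps2, at 1136, 2023 and 1944. Levels of both genes also differed between libraries of a single adult group, as given below. Over the same libraries, of the factors that assemble ribosomes 39 of 51 fell and none rose, at a median of -0.16 (-0.25 by library totals); their difference from the members was not tested. Among them were Fbl, the methyltransferase of ribosomal RNA (-0.27), the assembly ATPase Mdn1 (-0.31) and the nucleolar GTPase Gnl3 (-0.23). Of 17 translation genes that carry the same terminal tract, 11 fell and none rose. Mitochondrial ribosomal proteins, which serve another ribosome, split into 16 that rose and 15 that fell of 76. Hepatocyte markers rose in 9 of 11 cases, and the 10 most abundant genes grew from 15.2% and 15.3% of reads at E11.5 to 24.7% and 25.1% at E19.5; the part of these in the members' fall was not tested.

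Between E19.5 and P0, Foxa3Cre controls showed few changes, and between P0 and P14 nearly all members fell. From E19.5 to P0, 3 members rose and 6 fell of 79 (7.27% and 7.18% of the 18572 genes tested). Rpl36 rose from 1786 and 1713 to 2197 and 2422 (0.40 ± 0.11, adjusted p = 0.012), and Rpl22 fell from 512 and 501 to 380 and 364 (-0.44 ± 0.10, adjusted p = 0.0018). Without cells marked for another type none rose and 7 fell, and with any 1 of the 4 libraries left out 2 to 6 members were called. From P0 to P14, 75 of 79 fell and none rose, against 11.2% of all genes lower. The median was -1.07 for members and 0.00 for all genes; by library totals 67 fell, at a median of -0.83 against 0.08.

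After Rps2, which is described below, Rpl34 fell most, from 1683 and 1911 to 216 and 197 CPM (-3.12 ± 0.15, adjusted p = 1.4e-17). Rpl39, which lines the exit tunnel of the large subunit, fell from 1296 and 1335 to 380 and 352 (-1.84 ± 0.12, adjusted p = 1.8e-14). In both genes the P0 and P14 libraries lay far apart. Of the other ribosomal genes that the symbol rule leaves out, 7 of 8 fell, while mitochondrial ribosomal proteins had 28 lower and 9 higher of 76. Erythroid markers summed to 4407 and 2951 CPM at P0 and to 693 and 262 at P14. Without the cells that carried markers of another type, 69 members still fell, at a median of -0.98.

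Pard3 encodes the cell polarity protein PAR3, and the next comparisons asked how the members stood in the libraries labelled Pard3HMKO. In Foxa3Cre embryos no member was called at E11.5 or E13.5 by edgeR or DESeq2, none had an unadjusted p under 0.05 in edgeR (2.83% and 3.59% of all genes had), and of all genes 0.0808% and 0% were called. At E15.5, 4 members rose and 1 fell of 79 (0.135% and 0.0969% of all genes). Rpl29 had 40.3 and 45.3 CPM in Pard3WT and 97.2 and 295 in Pard3HMKO (2.2 ± 0.28, adjusted p = 0.00017), and Rpl21 had 665 and 451 against 298 and 241 (-1.05 ± 0.12, adjusted p = 2.4e-06). Rps2, Rps18 and Rps26 also rose, by 1.45, 0.73 and 0.59 log2. The Pard3HMKO libraries disagreed with each other for Rpl29 and for Rps2 (530 and 1333). Without replicate 2 of Pard3HMKO 2 members were called, and in a fit of only these 4 libraries none was.

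At E17.5 the direction of the members in Pard3HMKO depended on the scaling. By TMM, 49 of 79 fell and 2 rose in the Foxa3Cre line (7.87% and 7.1% of all genes), at a median of -0.38 against 0.00 for all genes, whereas by library totals 58 rose and 1 fell, at a median of 0.33 against 0.63. Relative to the median of all genes the members stood at -0.38 by TMM and at -0.29 by library totals, while their share of reads was higher: 9.14% and 10.5% in Pard3HMKO against 7.63% and 7.85%. The 10 most abundant genes took 39.4% and 40.4% of reads in Pard3WT and 30% and 25.5% in Pard3HMKO. Without those genes the members' share was 12.6% and 13.2% against 13.1% and 14.1%.

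Rpl10, which joins the large subunit late in its assembly, had 2070 and 2425 CPM in Pard3WT and 1262 and 1138 in Pard3HMKO (-0.91 ± 0.09, adjusted p = 6.0e-09; -0.20 by library totals). Rpl26 of the large subunit had 1711 and 1856 against 796 and 729 (-1.23 ± 0.26, adjusted p = 0.0016), and -0.52 by library totals. Rps26 of the small subunit, which lies at the exit channel of the messenger RNA, had 1471 and 1703 against 906 and 949 (-0.78 ± 0.11, adjusted p = 2.5e-06), and -0.06 by library totals. The groups of these 3 genes did not overlap under TMM. Without cells marked for another type 22 members fell and 1 rose by TMM, and without Pard3WT replicate 2 20 were called in all. Hepatocyte markers fell in 10 of 11 cases, at a median of -1.12, and summed to 370850 and 381031 CPM in Pard3WT and 283681 and 236808 in Pard3HMKO; the part of this in the members' change was not tested. Of the assembly factors 7 of 51 rose and 2 fell, and of the mitochondrial ribosomal proteins 1 rose and 9 fell of 76.

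With Alfp-Cre the same comparison gave fewer calls in the same directions. By TMM 13 members fell and none rose (3.07% of all genes fell), at a median of -0.21; by library totals 14 rose and none fell, at 0.15 against 0.35 for all genes. Rpl32 fell by TMM from 1993 and 2190 to 1617 and 1275 (-0.53 ± 0.12, adjusted p = 0.0056; -0.17 by library totals). Rpl38 had 2509 and 2664 against 2000 and 1655 (-0.50 ± 0.12, adjusted p = 0.0079; -0.14). No member was called without Pard3HMKO replicate 2 or without cells marked for another type. Hepatocyte markers fell in 8 of 11 cases.

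A test of the difference between the Alfp-Cre and Foxa3-Cre effects called 6 members as higher and 2 as lower with Alfp-Cre by TMM (1.64% and 1.28% of all genes), but none as higher and 7 as lower by library totals. Without cells marked for another type no member was called, in a fit of only these libraries 1 was higher and 2 lower, and without replicate 2 of Foxa3Cre Pard3HMKO or Pard3WT 2 were. Rpl10 was higher in this sense, since it fell more with Foxa3-Cre (a difference of 0.59 ± 0.13, adjusted p = 0.0064; 765 and 813 in Alfp-Cre controls against 609 and 656). The 2 lower were Rps2 (-2.12 ± 0.33, adjusted p = 0.00045) and Rps18 (-0.76 ± 0.16, adjusted p = 0.0037). For Rpl10 the Alfp-Cre controls lay far below the Foxa3-Cre controls given above. The Cre used and other differences between these sets of libraries cannot be told apart.

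At E19.5, 30 of 79 members fell by TMM and none rose (3.92% of all genes fell), at a median of -0.32, but by library totals 3 rose and 2 fell, at -0.06 against 0.24 for all genes. Rpl38 had 3572 and 2972 CPM in Pard3WT and 2172 and 2033 in Pard3HMKO (-0.64 ± 0.12, adjusted p = 0.00051), and -0.38 by library totals. Rpl37a had 2560 and 2080 against 1536 and 1516 (-0.60 ± 0.10, adjusted p = 0.00011). Rps9 of the small subunit had 1640 and 1360 against 1064 and 1009 (-0.53 ± 0.12, adjusted p = 0.0029). Without Pard3HMKO replicate 2 the count was 4, and without cells marked for another type it was 0. The members' share was 8.42% and 7.85% in Pard3WT and 7.94% and 7.64% in Pard3HMKO, so the shares overlapped.

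**Figure D3:**
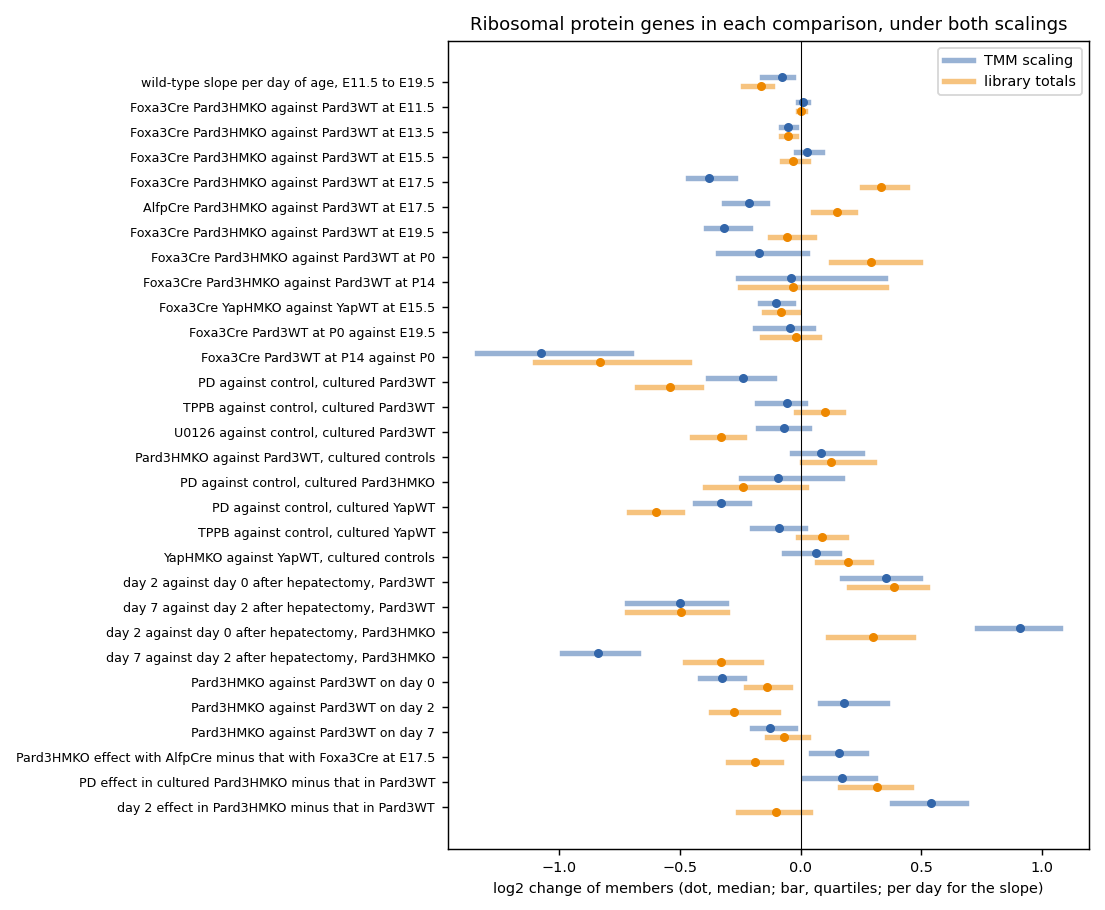
Median log2 change of the tested members in each comparison with TMM scaling and with library totals (dots; bars span the quartiles of members); the slope is per day. At E17.5 in the Foxa3Cre line the median is -0.38 with TMM and 0.33 with library totals, while from P0 to P14 it is below -0.8 with both.

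At P0 the members split. By TMM 3 rose and 22 fell in Pard3HMKO (10.5% and 11.3% of all genes), at a median of -0.17, whereas by library totals 47 rose and 3 fell, at 0.29 against 0.24 for all genes. Rpl41 rose under either scaling, from 4275 and 4614 to 6151 and 6120 (0.47 ± 0.11, adjusted p = 0.0024; 0.93 by library totals), and so did Rpl22, a protein not needed for the ribosome itself, from 380 and 364 to 545 and 483 (0.47 ± 0.10, adjusted p = 0.00072). Rpl36 fell from 2197 and 2422 to 1311 and 1401 (-0.77 ± 0.11, adjusted p = 2.3e-06; -0.30 by library totals). Rps2 and Rps18, described below, fell most. Cells marked for another type were 86.7% and 100% of Pard3HMKO and 87.9% and 80% of Pard3WT, and without them, which leaves a single Pard3HMKO library, 11 rose and 4 fell by TMM. The macrophage and myeloid markers, of which Cd5l was at 0 in Pard3WT replicate 1, summed to 1017 and 178 CPM in Pard3WT and to 131 and 87.5 in Pard3HMKO, with 7 of 14 lower; their part was not tested.

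At P14 members changed in both directions in Pard3HMKO. Of 79 members 21 rose and 17 fell by TMM (9.06% and 7.68% of all genes), and 21 and 19 by library totals, with medians near 0. Rpl34 rose from 216 and 197 to 757 and 696 (1.82 ± 0.14, adjusted p = 5.1e-12), still below its 1683 and 1911 in Pard3WT at P0. Rpl21 rose from 479 and 460 to 877 and 878 (0.90 ± 0.12, adjusted p = 6.9e-07). Rps27l rose by 0.71 ± 0.11 (adjusted p = 5.0e-06) and Rpl39 by 0.72 ± 0.11 (adjusted p = 1.2e-05). Rps6, the classical target of S6 kinase, fell from 650 and 575 to 391 and 359 (-0.71 ± 0.11, adjusted p = 5.4e-06), and Rpl9 fell from 670 and 609 to 397 and 398 (-0.69 ± 0.09, adjusted p = 3.3e-07).

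In the same libraries 24 of 51 assembly factors fell and 1 rose, 12 of 17 terminal-tract translation genes fell and none rose, and 22 of 76 mitochondrial ribosomal proteins fell and 9 rose. Cells marked for another type made up 94.3% and 100% of Pard3HMKO and 78.6% and 66.7% of Pard3WT. Without them the lone Pard3HMKO library left had 39 members higher and 4 lower, at a median of 0.41.

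Yap encodes the transcriptional co-activator of the Hippo pathway. At E15.5 no member was called by edgeR, 7 were lower at an unadjusted p under 0.05 (5.23% of all genes were), and DESeq2 called 2 (1.93% of all genes; edgeR called 0.258% in either direction). The member share was 5.10% and 6.03% in YapWT and 5.53% and 4.95% in YapHMKO. At E17.5, where Yap1 went against the labels, no test was fitted; the share was 8.71% and 8.38% in YapWT and 9.45% and 10.1% in the libraries labelled YapHMKO, and 8.44% and 8.46% against 10.2% and 10.7% in the line labelled for both genes. Rpl29, the member that varied most over all groups, stood at 1088 and 1025 in YapWT and at 571 and 607 in the libraries labelled YapHMKO. This difference was not tested.

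Rps2 and Rps18, which lie on chromosome 17, need a measurement of their own, because reads of Rps2 and of the pseudogene Rps2-ps13 changed places between some groups. For each 100 reads of Rps2, Rps2-ps13 had 366 and 388 in Pard3WT at E17.5 but 26.7 and 25.7 in Pard3HMKO. At P0 the order was turned, with 6.05 and 7.42 in Pard3WT and 359 and 366 in Pard3HMKO. At P14 Pard3WT had 144 and 133 and Pard3HMKO 23.3 and 20.6. At each of these ages the line with more pseudogene reads had less Rps2, but over all libraries the relation was not one-way.

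Rps2 was called at each of these ages. It had 336 and 388 CPM in Pard3WT at E17.5 and 1182 and 1162 in Pard3HMKO (1.69 ± 0.24, adjusted p = 1.4e-05), 1633 and 1730 against 168 and 172 at P0 (-3.31 ± 0.26, adjusted p = 2.6e-10), and 186 and 159 against 525 and 462 at P14 (1.52 ± 0.24, adjusted p = 4.3e-05). With the reads of pseudogenes added to the gene they are named after, a choice made after seeing these values, the E17.5 difference of Rps2 was -0.13 (adjusted p = 0.55) and no member rose there. Counted that way Rps2 was also not called at E15.5 (0.27, adjusted p = 0.58), but still fell at P0 (-1.14, adjusted p = 3.6e-09) and rose at P14 (0.55, adjusted p = 0.001), by less than before. The difference of Rps2 between the Alfp-Cre and Foxa3-Cre effects was then -0.16 (adjusted p = 0.79). Rps18 shifted along with Rps2, with 2179 and 2245 in Pard3WT and 639 and 669 in Pard3HMKO at P0 (-1.76 ± 0.11, adjusted p = 3.4e-14). Libraries of a single group could also differ: of the 6 Pard3HMKO libraries on day 7 after hepatectomy, replicates 3 and 4 had 167 and 210 pseudogene reads for each 100 of Rps2, and the other 4 at most 0.17. The 2 were also the smallest, with 12 and 9 cells. Their Rps18 was lower as well, at 202 and 220 CPM against 587 to 733 in the other 4.

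**Figure D4:**
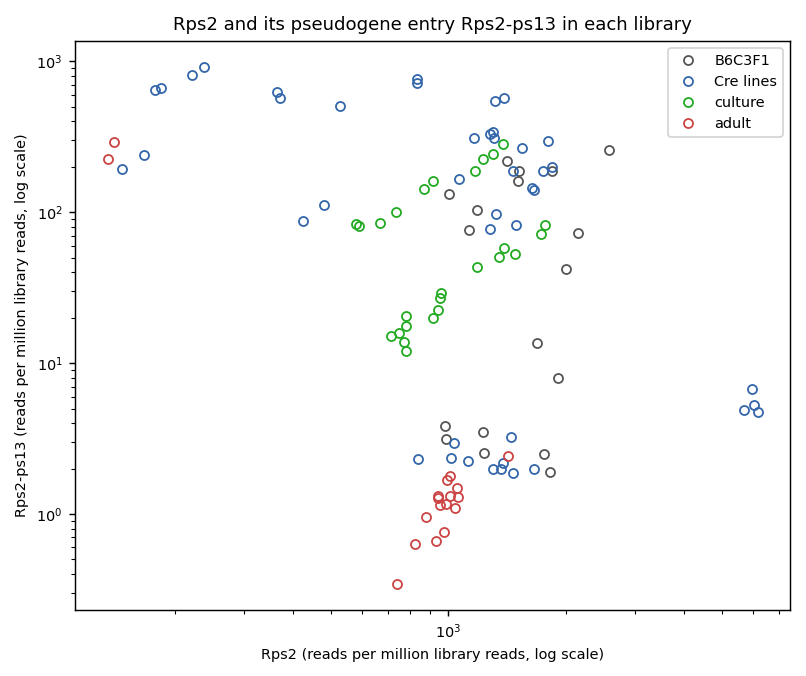
CPM, without TMM scaling, of Rps2 (horizontal, log scale) and of Rps2-ps13 (vertical, log scale) in all RNA libraries. The libraries lowest in Rps2, among them those of Pard3WT at E17.5 and Pard3HMKO at P0, have many pseudogene reads, but so have some with much Rps2, and in culture both values are high or low together.

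In culture, members took a smaller share of reads with PD. Pard3WT controls had 7.09% and 6.97%, those with PD 4.66% and 4.76%, with U0126 5.28% and 5.62%, with TPPB 7.52% and 7.44%, and with TPPB and PD 5.51% and 5.10%. The comparisons of a line with its agents share the 2 control libraries. With PD 17 of 78 members fell and none rose by TMM (6.73% of the 16715 genes fell), at a median of -0.24 against -0.03 for all genes; by library totals 58 fell, at -0.54 against -0.33.

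Rplp0, the base of the stalk that recruits translation factors, fell with PD from 1462 and 1578 to 879 and 963 (-0.72 ± 0.12, adjusted p = 0.00018; -1.02 by library totals). Rpl26 fell from 282 and 275 to 170 and 179, by 0.67 log2, and Rpl34 from 980 and 1034 to 595 and 711, by 0.62 log2. The PD and control libraries of these genes did not overlap. Assembly factors fell in 15 of 51 cases with none higher, while 16 of 76 mitochondrial ribosomal proteins rose and 1 fell. In controls 70.6% and 26.7% of the cells were marked for another type, with PD 4.35% and 8.33%. Macrophage markers, with Mpo at 0 in all 4 libraries and Ptprc in PD replicate 1, summed to 78 and 75 CPM against 12 and 16. Without marked cells 10 members fell and 1 rose, and with any 1 of the 4 libraries left out 7 to 11 were called.

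U0126 called 5 members, all lower (5.75% of all genes fell), at a median of -0.07, and 34 lower by library totals, at -0.33 against -0.28 for all genes. Rpl26 had 190 and 214 with U0126 (-0.46 ± 0.13, adjusted p = 0.024) and Rpl34 751 and 779 (-0.40 ± 0.12, adjusted p = 0.03), each above its values with PD. With any 1 of the 4 libraries left out, at most 1 member was called, and without marked cells none was lower. With TPPB 2 members fell by TMM (5.37% of all genes) and 1 rose by library totals. Rps20 had 708 and 627 in controls and 469 and 467 with TPPB (-0.51 ± 0.14, adjusted p = 0.026), and -0.36 by library totals; Rpl13a fell by 0.43 log2. Both calls with TPPB were lost in a fit of only these 4 libraries, with no filter on low counts and without marked cells, and at most 1 stood with any 1 library left out. Neither U0126 nor TPPB was tested against PD.

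PD was also tested in YapWT and Pard3HMKO cultures. YapWT controls had a member share of 6.23% and 6.31%, and 3.79% and 4.47% with PD. By TMM 29 members fell and none rose (8.7% of all genes fell), at a median of -0.33; by library totals 69 fell, at -0.60 against -0.31. Rpl15 had 577 and 449 in controls and 297 and 323 with PD (a fall by 0.73 log2), and Rpsa, a small-subunit protein also known as the laminin receptor precursor, 1098 and 1031 against 632 and 776 (a fall by 0.60 log2). Of the assembly factors 26 of 51 fell. The controls held 19 and 14 cells with 531 and 1114 CPM of macrophage markers, against 24.7 and 30.4 with PD; Mpo was at 0 in both controls. Without PD replicate 1 the count of members was 5, in a fit of only these 4 libraries it was 0, and without marked cells, which leaves a single control, 32 fell.

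In Pard3HMKO cultures PD called 12 members as lower and 2 as higher (5.43% and 9% of all genes), at a median of -0.09, or 22 lower and 1 higher by library totals. Rplp0 fell from 2231 and 2469 to 1332 and 1144 (by 0.92 log2). Rps20 rose from 571 and 510 to 862 and 889 (0.70 log2). With any 1 of the 4 libraries left out 4 to 9 members were called. The PD effects of the Pard3HMKO and Pard3WT lines were not shown to differ: no member was called in the test of the difference by edgeR, 9 were higher at an unadjusted p under 0.05 (7.15% of all genes were), DESeq2 called 1 (3.06% of all genes), and 0.838% of all genes were called in either direction. The median difference was 0.17 log2.

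Between untreated cultures, Pard3HMKO against Pard3WT called 3 members as higher and none as lower (1.57% of all genes rose), with Rplp0 at 2231 and 2469 against 1462 and 1578 (0.63 log2). YapHMKO against YapWT called 3 higher and 2 lower (3.28% and 5.93% of all genes). Rps27l had 659 and 732 in YapWT and 1316 and 1161 in YapHMKO (0.83 log2), Rpl41 1499 and 1312 against 2598 and 2037 (0.72), and Rplp0 1287 and 1250 against 2157 and 1816 (0.65). Rpl21 fell from 990 and 872 to 521 and 503, by 0.86 log2. In fits of only the 4 libraries no member was called in either line. Hepatocyte markers fell in 11 of 11 cases in Pard3HMKO and in 10 of 11 in YapHMKO. In YapWT, TPPB called 2 higher and 5 lower members (3.28% and 7.17% of all genes), or 4 higher and none lower by library totals; Rps27l had 659 and 732 in controls and 1075 and 1021 with TPPB (0.59 log2). In a fit of only these 4 libraries none was called, and without YapWT control replicate 1 or TPPB replicate 1, 2 members were. These YapWT controls are the macrophage-rich libraries named above.

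After hepatectomy the members' share of reads was higher on day 2 and back by day 7. In Pard3WT the share was 4.35% and 3.98% on day 0, 5.69% and 5.09% on day 2, and 4.14%, 3.93%, 4.01% and 3.84% on day 7. In Pard3HMKO it was 3.99% and 3.43%, then 4.75% and 4.49%, then 3.55% to 3.82% in 6 libraries. In each line both day-2 libraries lay above all others.

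In Pard3WT, 19 of 79 members rose and 1 fell by day 2 (5.79% and 9.88% of the 15391 genes), at a median of 0.35 against -0.05 for all genes, or 22 and 1 by library totals at 0.38. Rpl12, at the base of the stalk, rose from 263 and 239 to 473 and 492 (0.94 ± 0.17, adjusted p = 0.00041). Rpl41 rose from 2212 and 2145 to 3810 and 3495 (0.75 ± 0.15, adjusted p = 0.00093), and Rpsa from 497 and 390 to 747 and 745 (0.75 ± 0.23, adjusted p = 0.031). The member that fell was Rps27l, from 1030 and 1101 to 605 and 612 (-0.81 ± 0.18, adjusted p = 0.0025). Assembly factors rose in 7 of 51 cases and fell in 1, and mitochondrial ribosomal proteins rose in 2 and fell in 9 of 76.

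Day-2 replicate 1 of Pard3WT held only 7 cells, with erythroid markers at 5085 CPM against 7.56 in replicate 2 (Gata1, Slc4a1, Rhd and Ermap among those at 0). For Rpl12 (473 and 492) and Rpsa (747 and 745) the 2 day-2 libraries were close. For other members they were not, as for Rps6 (914 and 628) and Rpl3 (1023 and 756), with replicate 1 the higher. Without day-0 replicate 2 the count of calls was 5, in a fit of only these 4 libraries it was 6, and without cells marked for another type 5 rose and 1 fell.

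From day 2 to day 7 in Pard3WT 48 members fell and 2 rose (9.29% and 12.2% of all genes), at a median of -0.49, or 50 and 1 by library totals at -0.48. Rps13 fell from 425 and 361 to 196, 181, 200 and 189 (by 1.04 log2). Rpl12 fell by 0.98 and Rpsa by 0.99 log2, to levels near those of day 0. Rps27l rose to 1130, 1245, 1211 and 1385 (1.03 ± 0.16, adjusted p = 5.5e-05), so in Pard3WT it moved against the family at both steps; Rpl35a rose by 0.37 log2. Without day-2 replicate 1 the count was 32.

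**Figure D5:**
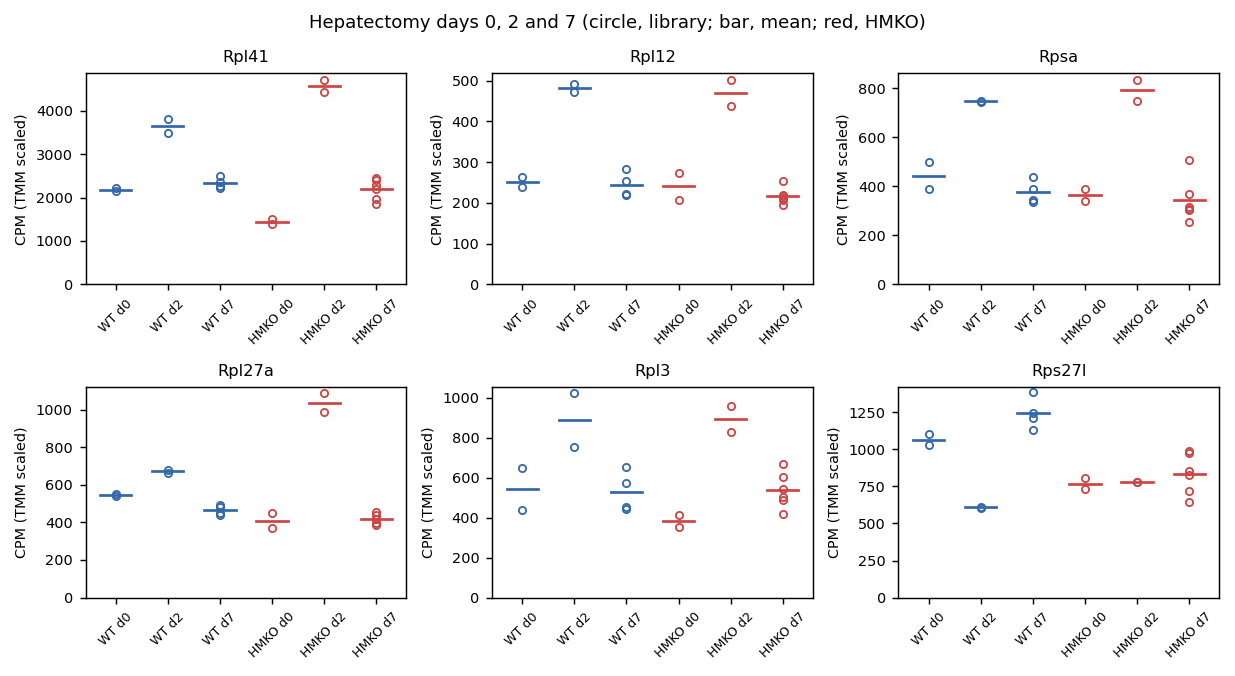
CPM (TMM scaling) of Rpl41, Rpl12, Rpsa, Rpl27a, Rpl3 and Rps27l on days 0, 2 and 7 after hepatectomy; circles are libraries, bars means, red Pard3HMKO. The first 5 genes peak on day 2, while Rps27l is lowest on day 2 in Pard3WT, at 605 and 612.

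In Pard3HMKO, 69 of 79 members rose by day 2 under TMM and none fell (8.8% of all genes rose), at a median of 0.92 against -0.06 for all genes; by library totals 22 rose and 1 fell, at 0.31 against -0.66. Rpl41 rose from 1498 and 1391 to 4447 and 4705 (1.66 ± 0.15, adjusted p = 6.4e-08; 1.05 by library totals). Rpl27a rose from 448 and 370 to 1088 and 987 (1.34 ± 0.14, adjusted p = 4.9e-07), and Rpl38 from 802 and 650 to 1932 and 1716 (1.33 log2; 0.72 by library totals). Rps27l was not called by TMM (0.02 ± 0.17, adjusted p = 0.96), at 804 and 730 and then 783 and 777. The 10 most abundant genes took 23% and 24.1% of reads on day 0 and 34% and 36% on day 2. Without them the share of members went from 5.18% and 4.52% to 7.20% and 7.01%.

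Of the related lists, 12 of 51 assembly factors and 20 of 76 mitochondrial ribosomal proteins rose by day 2 in Pard3HMKO under TMM, with none and 3 lower; by library totals their medians were -0.06 and -0.30. By day 7, 73 members fell and none rose (9.64% of all genes fell), at a median of -0.84, or 32 fell and 1 rose by library totals, at -0.33 against 0.60. Rps12 fell from 338 and 301 to 92.1, 103, 139, 169, 114 and 87.7 (by 1.45 log2), and Rpl27a by 1.31 log2. In both genes all 6 day-7 libraries lay below both day-2 libraries. Cells marked for another type were 84.6% and 91% on day 0 and 43.4% and 38.7% on day 2 of Pard3HMKO, and without them 67 members rose by day 2 and 73 fell by day 7.

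The day-2 rise of 12 members was larger in Pard3HMKO than in Pard3WT by TMM and of none by library totals. The test of the difference called 12 members as higher and none as lower by TMM (1.83% of all genes were higher), at a median of 0.54, but none as higher and 1 as lower by library totals, at -0.10 against -0.57 for all genes. Rps28 had 581 and 514 on day 0 and 545 and 590 on day 2 in Pard3WT, against 428 and 376 and then 890 and 862 in Pard3HMKO (1.07 ± 0.22, adjusted p = 0.01; 0.43 by library totals). Rpl27a differed by 1.04 ± 0.20 (adjusted p = 0.0059) and Rplp1, a protein of the stalk, by 1.01 ± 0.19 (adjusted p = 0.0062). Without day-0 replicate 2 of Pard3HMKO 2 members were called.

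Within a day few members differed between the lines. On day 0 no gene was called by edgeR (0%); 37 of the members were lower in Pard3HMKO at an unadjusted p under 0.05 (4.67% of all genes were), DESeq2 called 7 as lower (4.44% of the genes to which it gave an adjusted p), and the median was -0.33 against 0.04 for all genes. On day 2, 3 members were higher (1.99% of all genes) by TMM and 2 lower by library totals. Rplp1 had 721 and 822 in Pard3WT and 1232 and 1244 in Pard3HMKO (0.68 ± 0.14, adjusted p = 0.0054; 0.23 by library totals). None of the 3 was called in a fit of only these 4 libraries or with no filter on low counts, and 0 to 3 members were with any 1 library left out, 0 without Pard3WT replicate 1. On day 7, 2 members were lower (2.75% of all genes). Rps27l had 1130 to 1385 in 4 Pard3WT libraries and 644 to 987 in 6 Pard3HMKO libraries (-0.57 ± 0.11, adjusted p = 0.0035; -0.51 by library totals), with no overlap. Rpl21 had 526 to 599 against 293 to 467 (-0.49 ± 0.12, adjusted p = 0.016; -0.43 by library totals). The lowest Pard3HMKO values of both genes were in replicates 3 and 4, the smallest of that group (Rps27l 722 and 644, Rpl21 293 and 351). In its other libraries Rps27l had 827 to 987 and Rpl21 400 to 467. Without cells marked for another type neither gene was called, and without Pard3WT replicate 1, 2 or 3 only 1 member was. The Pard3HMKO libraries of day 7 were not left out in turn. Macrophage markers rose in 6 of 14 cases in Pard3HMKO on day 7, where they summed to 32 to 104 CPM against 20.9 to 27.9; their part in the change of Rps27l and Rpl21 was not tested.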

How the data were processed

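The deposited table holds raw counts per gene and cell for 4264 cells of 106 libraries; a second deposited table, a signal of counts divided by gene length and scaled per cell, was read only for the relative length of 22314 genes. Per the submitters' processing notes, RNA reads went through FastQC 0.11.9, Trimmomatic 0.39 and HISAT2 2.1.0 on GRCm38 and mm10. The counting tool is not given in the sources used here, nor whether copies of 1 molecule were merged, so counts were taken as reads. The authors' ATAC files list regions with a score per library; per the same notes, the ATAC reads went through Trimmomatic 0.38 and Bowtie2 2.2.5 on mm10, SAMtools 1.3.1, MACS 1.4.2 and HOMER. Per the labels' extraction protocol, cells were sorted for EpCAM from earlier gut tissue, which does not describe these liver ages.

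Counts were summed per library, leaving out 92 spike-in entries with 126 reads in all. The sums were tested in R 4.3.3 with edgeR 4.0.16 (filterByExpr, TMM, trended dispersion, robust quasi-likelihood fits, 2-sided, Benjamini-Hochberg adjustment over all genes, call at adjusted p below 0.05) in 4 fits: 18 wild-type, 44 in vivo line, 26 culture and 18 adult libraries. A standard error was obtained as log2 change over root F. Levels in the text are CPM (reads per 1000000) with TMM scaling unless called a share. No label ties replicates to separate animals, so p-values measure the spread between libraries, which may be technical; most groups have 2. The members and lists were chosen with earlier results of these data known. Named were the paralogs and their parents, the 5 highest and 5 lowest members, the 3 most and 3 least variable, and per comparison the 3 largest called rises and falls. One gene that this rule names is not reported here. The code was tested on simulated data. DESeq2 1.42.0, other scalings and filters, other choices of cells and libraries, and a replicate block were alternatives.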

Additional observations from a re-analysis of the deposited data

Results flagged for a closer look

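Rpl8, a protein of the large subunit, was set apart in a single library. In the 6 Pard3HMKO livers on day 7 after hepatectomy it had 241, 267, 274, 374, 273 and 280 CPM with TMM scaling. Replicate 4 stood above the others by a gap of 0.708 of the whole range. This was 1 of 96 group values examined, and chance alone flags about 1 in 20. The library had 9 cells and was also low in Rps2.

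The effect of Pard3HMKO at E17.5 differed between the Alfp-Cre and Foxa3-Cre lines for 8 members by the test of the difference, with 2 of the 8, Rps2 and Rps18, in the direction opposite to the rest. By library totals 7 members were called, all lower. Rps2 had 1526 and 1753 in Alfp-Cre controls and 336 and 388 in Foxa3-Cre controls, and its pseudogene Rps2-ps13 had 0.152 and 0.146 against 366 and 388 reads for each 100 of Rps2. With pseudogene reads added to their gene, the difference of Rps2 was -0.16 (adjusted p = 0.79, edgeR) and was not called.

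The rise from day 0 to day 2 after hepatectomy differed between Pard3HMKO and Pard3WT for 12 members, all with the larger rise in Pard3HMKO. By library totals 1 member was called, in the other direction.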

How the results depend on the processing

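Values are counts of members called; the names are those of the comparisons above, and each count follows the main one. With library totals the direction of most calls turned for Pard3HMKO at E17.5 in Foxa3Cre (51 to 59) and AlfpCre (13 to 14), E19.5 (30 to 5) and P0 (25 to 50), TPPB in Pard3WT (2 to 1) and YapWT (7 to 4), Pard3HMKO on day 2 (3 to 2), the Cre line difference (8 to 7) and the day-2 difference (12 to 1). The direction held, but the count moved, for the slope (32 to 64), PD in Pard3WT (17 to 58), Pard3HMKO (14 to 23) and YapWT (29 to 69), U0126 (5 to 34), cultured Pard3HMKO (3 to 6) and YapHMKO (5 to 11), Pard3HMKO from day 0 to 2 (69 to 23) and 2 to 7 (73 to 33), day 7 between lines (2 to 1) and the PD difference (0 to 1). DESeq2 gave 30 for AlfpCre, 53 at E19.5, 2 for YapHMKO at E15.5, 9 for U0126, 5 for cultured Pard3HMKO, 34 for Pard3WT by day 2, 7 and 5 between lines on days 0 and 2, and 1 for the PD difference.

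With no filter on low counts the count was 3 for YapHMKO at E15.5, 14 from E19.5 to P0, 9, 7 and 13 for PD in Pard3WT, Pard3HMKO and YapWT, 0 and 4 for TPPB in Pard3WT and YapWT, 0 for U0126, 1 for cultured Pard3HMKO, 0 and 4 between lines on days 2 and 7, and 3 for the day-2 difference. In fits of only the libraries compared it was 0 at E15.5, 33, 0 and 54 for Pard3HMKO at E17.5 in Foxa3Cre, in AlfpCre and at E19.5, 23 from E19.5 to P0, 0 for TPPB in either line, for PD in YapWT, for both cultured knockouts and between lines on day 2, 2 for U0126, 7 for PD in Pard3HMKO, 6 for Pard3WT by day 2, 4 for the day-2 difference, and 3 for the Cre line difference, with the direction turned. Without cells marked for another type it was 23, 0 and 0 for E17.5 in Foxa3Cre, in AlfpCre and at E19.5, 15 at P0 with the direction turned, 11 for PD in Pard3WT and for cultured Pard3HMKO, 1 with the direction turned for TPPB in Pard3WT and for U0126, 6 and 32 for Pard3WT by days 2 and 7, 0 between lines on day 7 and 0 for the Cre line difference; 6 libraries then had no cell. With pseudogene reads added to their gene, chosen after seeing the data, the count at E15.5 was 3, and Rps2 at E17.5 turned to -0.13. Where no cause is named, the cause was not tested.

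Leaving out 1 library at a time, with the genes and dispersion of the full fit, gave 27 to 38 for the slope, 2 to 7 for Pard3HMKO at E15.5, 20 to 48 at E17.5, 0 to 10 with AlfpCre, 4 to 20 at E19.5, 17 to 20 at P0 and 24 to 30 at P14. It gave 0 to 1 for YapHMKO at E15.5, 2 to 6 from E19.5 to P0 and 72 to 75 from P0 to P14. In culture it gave 7 to 11, 4 to 9 and 5 to 30 for PD in Pard3WT, Pard3HMKO and YapWT, 0 to 1 and 2 to 8 for TPPB in Pard3WT and YapWT, 0 to 1 for U0126, 1 for Pard3HMKO and 4 to 6 for YapHMKO. In adults it gave 5 to 21 and 32 to 49 for Pard3WT by days 2 and 7, 55 to 62 and 66 to 70 for Pard3HMKO, 0, 0 to 3 and 1 to 2 between lines on days 0, 2 and 7, 2 to 8 for the Cre line difference, 0 for the PD difference and 2 to 11 for the day-2 difference. Counts stayed at 0 at E11.5 and E13.5. None of the Pard3HMKO libraries of day 7 was left out, so the day-7 ranges do not cover them. A library left alone in its group is assumed to vary like the others.

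The replicate block, that is the replicate number added to the fit, changed the count by over 1.5 times only for day 7 between lines (2 to 4). Same-numbered libraries deviated together in every pair in 2 of 26 comparisons (correlations -0.07 to 0.18). In groups of 2 libraries both replicates give the same value, so these values cannot decide whether the numbers pair the libraries. Dropping E15.5 and E16.5 did not move the slope count by over 1.5 times. The planned use of the second deposited table in place of counts was not run; counts divided by length stood in for it. With 2 libraries in most groups, small differences were not detectable.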

Other observations

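Calls were spread unevenly over the members. Across the 30 comparisons, Rplp0 was called most often, 5 times higher and 8 times lower. Rpl13 was higher in 3 and lower in 9, Rpl41 higher in 5 and lower in 6, and Rps18 higher in 4 and lower in 7. The comparisons share control libraries, so these counts are not independent. Rpl3l, Rpl39l and Rpl10l were called in none.

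Members were spread over 19 chromosomes, with 14 on chromosome 7 and 7 each on chromosomes 9, 11 and 17; 4 lay on the X chromosome. The 246 pseudogene entries in the count table belonged to 57 members by name.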
